A study of Mus musculus with 6 samples.

Results

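Membrane mucins and other glycoproteins of the apical epithelial surface were followed in the uterine luminal layer and in blastocysts of mice on day 4 of pregnancy. The 10 genes, listed by name, were the membrane mucins *Muc1*, *Muc4*, *Muc15*, *Muc16* and *Muc20* and the surface glycoproteins *Cd44*, *Cd24a*, *Podxl*, *Epcam* and *Emcn*. Of these, 9 were found among the 23420 genes of the count tables, and *Muc16* was not analysed here. At least 10 counts over the 3 libraries of a tissue were reached by 8 of the 9 in the luminal layer and by 5 in blastocysts, the latter being *Muc1*, *Cd44*, *Cd24a*, *Podxl* and *Epcam*.

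The study compared females with 2 floxed *Lif* alleles, *Lif* being the gene of the cytokine leukemia inhibitory factor, with and without a Cre recombinase that deletes it from the uterine epithelium. Control females were Lif-floxed/floxed and received PBS. *Lif* eKO females were Lif-floxed/floxed and Ltf-Cre/+, and received PBS. Treated *Lif* eKO females had the same genotype and received recombinant Lif (rLif), 20 µg per head by intraperitoneal injection at 10 am and at 6 pm, with dissection 2 h after the later dose. All tissues were taken on day 4 at 8 pm. The blastocysts were flushed from the uteri of these 3 groups of females and are labelled Lif-floxed/+ in every group, so that every library came from tissue carrying a floxed allele, and blastocysts are named below for the group of their mothers. The *Ltf* promoter drives Cre in the uterine epithelium, so stromal *Lif* was not targeted. The age of the animals was not given in the sources used here. The luminal layer was cut out by laser microdissection, and each of the 6 groups was 1 library of pooled RNA or pooled blastocysts. With 1 library on each side, no difference could be checked against replicates, and no p-value is given.

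Membrane mucins are long, heavily glycosylated proteins that stand out from the apical membrane and form much of the glycocalyx, the coat that an attaching blastocyst meets first. Muc1 is the best known of them in the uterus, where it is regarded as a barrier to attachment whose level declines before implantation in the mouse. Cd44, Cd24a, Podxl and Epcam are surface glycoproteins that act in adhesion, and several of them are tied to the actin cortex by ezrin, radixin and moesin. Emcn, a sialomucin, is known mainly from the endothelium of veins and capillaries.

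The luminal libraries held 23850565 to 28460465 counts and the blastocyst libraries 18996158 to 19638852. Luminal *Lif* counts were 0 under the label control, 28 under eKO and 0 under eKO with rLif, and these libraries are called control-, eKO- and rLif-labelled from here on. The only counts thus lay in the library whose females carry the deletion and got no rLif, against its label. The loxP sites flank exon 3 and part of exon 4 of *Lif*, so counts over the whole gene can include reads of parts that are kept, and they do not show that intact *Lif* RNA was present. Before attachment *Lif* is known mainly from the glands, so its counts in the luminal layer are a weak check of the labels. Directions in the luminal layer hold for the libraries as labelled. *Lif* counts in blastocysts were 1447, 1736 and 1250. All 12 luminal epithelium markers had counts in each luminal library, with summed levels of 10703, 12296 and 8903 CPM, counts scaled to a common library size. All 12 stroma markers and all 14 endothelium markers had counts there too, with sums of 943, 1393 and 937 CPM for stroma and 117, 149 and 172 CPM for endothelium. All 10 trophectoderm and all 8 inner cell mass markers had counts in each blastocyst library, at 8017 to 8595 CPM and 1617 to 1909 CPM.

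The 250 bases before the RefSeq start (GRCm38.p6) are printed for the 5 members whose ratio between the rLif- and eKO-labelled libraries lay beyond 2-fold with its whole counting interval and that have an entry in the promoter table. *Cd24a*, *Podxl* and *Muc15* have none there, and 7 of the 10 genes matched. The windows lie at chr3:89228806-89229055 (*Muc1*, plus strand), chr16:32735636-32735885 (*Muc4*, plus), chr16:32797436-32797685 (*Muc20*, minus), chr17:87635729-87635978 (*Epcam*, plus) and chr2:102901666-102901915 (*Cd44*, minus). They are printed 5′ to 3′ in the direction of the gene, and capitals mark matches to the motifs searched.
Muc1: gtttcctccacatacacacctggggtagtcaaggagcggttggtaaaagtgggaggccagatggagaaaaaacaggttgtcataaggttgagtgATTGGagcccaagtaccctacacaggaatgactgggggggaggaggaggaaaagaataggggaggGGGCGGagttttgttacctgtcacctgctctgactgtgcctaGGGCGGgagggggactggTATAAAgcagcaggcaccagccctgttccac
Muc4: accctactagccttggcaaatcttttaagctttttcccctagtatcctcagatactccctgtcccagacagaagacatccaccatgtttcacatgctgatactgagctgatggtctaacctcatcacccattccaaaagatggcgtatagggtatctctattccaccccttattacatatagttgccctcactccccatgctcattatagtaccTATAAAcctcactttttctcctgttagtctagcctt
Muc20: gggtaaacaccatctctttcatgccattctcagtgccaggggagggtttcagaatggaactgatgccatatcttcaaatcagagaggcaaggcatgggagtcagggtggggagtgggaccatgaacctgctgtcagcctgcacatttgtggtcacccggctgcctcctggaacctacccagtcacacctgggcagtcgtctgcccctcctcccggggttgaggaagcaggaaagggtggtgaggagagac
Epcam: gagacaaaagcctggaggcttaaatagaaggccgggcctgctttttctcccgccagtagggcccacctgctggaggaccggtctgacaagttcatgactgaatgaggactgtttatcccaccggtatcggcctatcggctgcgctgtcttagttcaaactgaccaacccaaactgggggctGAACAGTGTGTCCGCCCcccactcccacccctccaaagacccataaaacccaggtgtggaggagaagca
Cd44: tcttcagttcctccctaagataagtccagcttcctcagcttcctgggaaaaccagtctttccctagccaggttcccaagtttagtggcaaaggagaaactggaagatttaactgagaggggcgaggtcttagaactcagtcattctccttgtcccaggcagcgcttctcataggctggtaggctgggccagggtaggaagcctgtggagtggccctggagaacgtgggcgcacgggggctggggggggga
The letters searched, on both strands, were TTCNNNGAA (Stat), GNACA followed after any 3 bases by TGTNC (progesterone or glucocorticoid receptor), GGTCA followed after any 3 bases by TGACC (estrogen receptor), GGGCGG (GC box), CCAAT and TATAAA. Positions count back from -1, the last base before the start. The *Muc1* window held TATAAA at -31 to -26, GGGCGG at -91 to -86 and at -49 to -44, and CCAAT on the opposite strand at -156 to -152. The *Muc4* window held TATAAA at -36 to -31. The *Epcam* window held the receptor motif as GAACAGTGTGTCC at -69 to -57, its last 2 bases overlapping a GC box on the opposite strand at -58 to -53. None of the 6 motifs was found in the *Muc20* and *Cd44* windows, and the Stat and estrogen receptor motifs were found in 0 of the 7 members' windows. Of 32851 windows of the same length, 7.02% held the Stat motif, 0.387% the progesterone or glucocorticoid receptor motif, 0.0639% the estrogen receptor motif, 32.7% a GC box, 33.8% CCAAT and 12.4% TATAAA. These are matches of letters in a short window, and no binding was measured.

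In the luminal layer, the mucins *Muc4* and *Muc20* were lowest in the eKO-labelled library, where *Cd44*, *Podxl* and *Cd24a* were highest, and *Muc1* was highest in the rLif-labelled library. In the plot of levels per library these opposite orders stand side by side. Levels are compared between genes per kilobase of exon (RPKM). *Cd24a* and *Epcam* were the most abundant members. *Cd24a* stood at 549, 1051 and 545 RPKM and *Epcam* at 486, 277 and 658 RPKM in the control-, eKO- and rLif-labelled libraries. *Cd24a* was thus above *Epcam* in the first and second of these libraries and below it in the last. *Muc1* came next at 27.6, 30.5 and 67.4 RPKM. *Emcn* (8.59 to 13.5), *Cd44* (4.54 to 12.0) and *Podxl* (2.72 to 8.28) formed the middle of the range. *Muc4* (0.272 to 1.91) and *Muc20* (0.122 to 1.67) were the lowest members with counts, and the order of these neighbours changed between libraries. Whether neighbours differ beyond the spread between animals cannot be judged from 1 library per group.

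**Figure D1:**
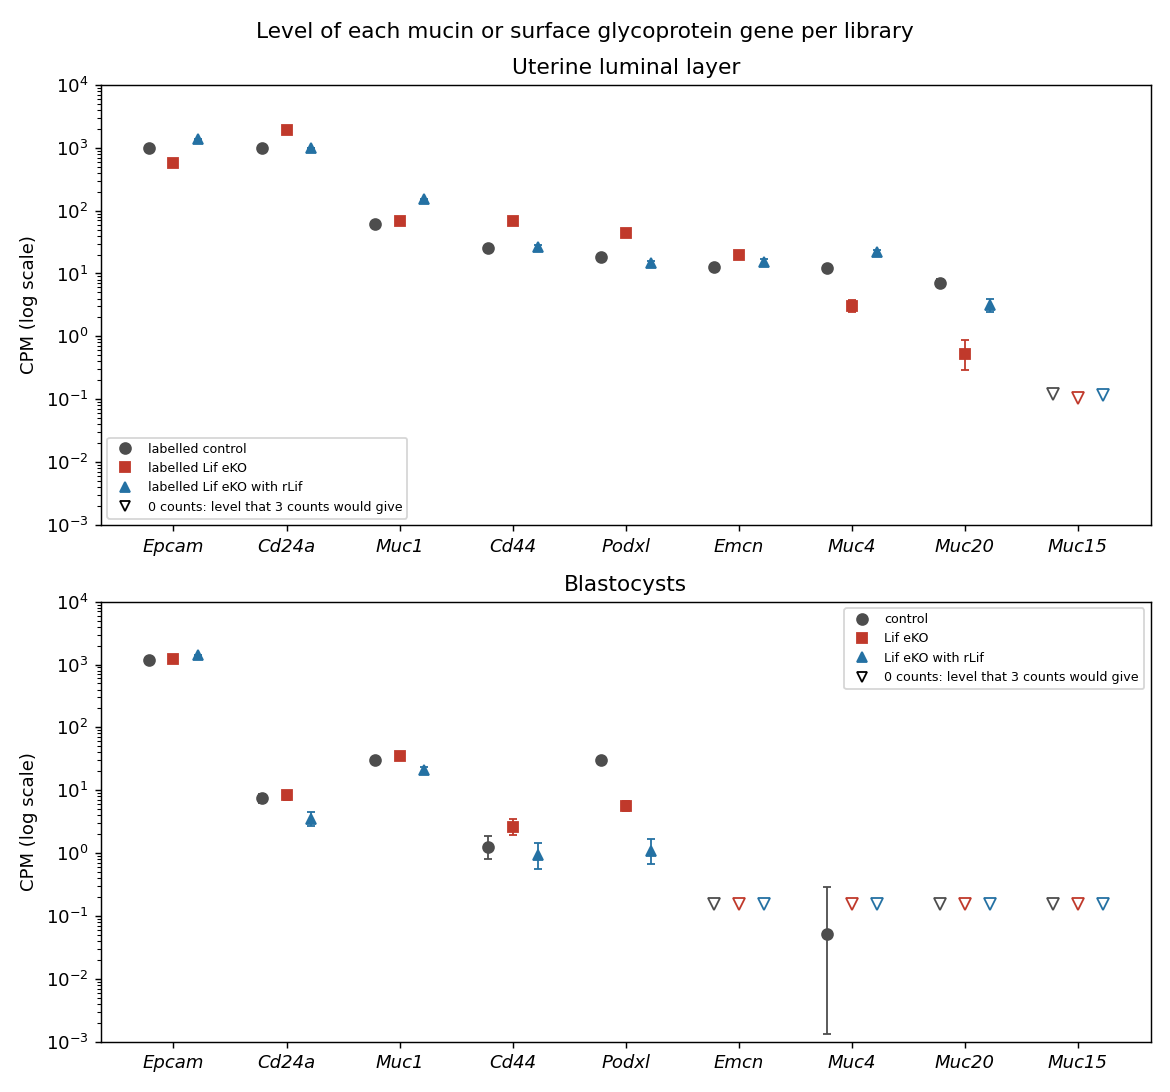
Level in CPM (log scale) of each member in the 3 luminal libraries (top) and the 3 blastocyst libraries (bottom), with exact 95% Poisson intervals for counting error. Open triangles mark genes with 0 counts, drawn at the level that 3 counts would give. *Muc4* and *Muc20* dip in the luminal eKO-labelled library, and *Podxl* steps down across the blastocyst libraries from 29.95 to 5.68 to 1.08 CPM.

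Ratios between libraries have exact 95% Clopper-Pearson intervals, given in parentheses on the log2 scale. They cover counting error only, not the spread between animals. PCR reads without molecular identifiers are not independent molecules, so the intervals can be too narrow even for counting error. A gene is called higher or lower when its whole interval lies beyond a 2-fold difference. In bulk samples, fewer cells of a type and less RNA per cell cannot be told apart.

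*Muc1* (chr3:89229052-89233369, plus strand) encodes the membrane mucin best known from the uterine surface. It had 1555 counts in the control-labelled library, 1955 in the eKO-labelled library and 3922 in the rLif-labelled library, or 61.6, 68.1 and 151 CPM. The first pair of libraries lay close together, with a log2 ratio of 0.14 (0.048 to 0.24). The rLif-labelled library was 2.21-fold above the eKO-labelled library (log2 1.15, 1.07 to 1.22) and 2.45-fold above the control-labelled library (1.29, 1.21 to 1.38). Both ratios were called, and 88.5% and 92.9% of all genes had a lower ratio in these comparisons. Scaled by total counts, the ratio to the eKO-labelled library was 1.04 (0.96 to 1.12) and was no longer called. The 7 glandular epithelium markers with a row were also highest in sum in the rLif-labelled library, at 17.4, 18.3 and 35.7 CPM. Against the eKO-labelled library 3 were called higher and 1 lower (median log2 1.20), beside 7.88% and 7.77% of all genes. The 1 called lower was *Lif* itself, with 28 and 0 counts. Against the control-labelled library 1 was called higher and 0 lower (median 1.32), beside 4.12% and 5.04% of all genes. The part of glandular cells in the *Muc1* values was not tested.

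*Muc4* (chr16:32735886-32782390, plus strand) encodes a very large membrane mucin that binds the receptor Erbb2. It had 304, 88 and 562 counts in the control-, eKO- and rLif-labelled libraries, or 12.0, 3.06 and 21.6 CPM. It was 3.93-fold lower in the eKO-labelled library than in the control-labelled library (log2 -1.97, -2.33 to -1.63) and 7.04-fold higher in the rLif-labelled library than in the eKO-labelled library (2.82, 2.49 to 3.16). Only 6.85% of genes had a lower ratio in the former comparison, and 95.8% had one in the latter. Between the rLif- and control-labelled libraries the log2 ratio was 0.84 (0.64 to 1.05), which was not called.

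*Muc20* (chr16:32777419-32797435, minus strand) encodes a smaller mucin that interacts with the receptor Met. Its counts were 181, 15 and 81, or 7.17, 0.522 (0.292 to 0.861) and 3.11 CPM. It was 13.7-fold lower in the eKO-labelled library than in the control-labelled library (log2 -3.78, -4.65 to -3.02), which placed it lowest among the members. It was 5.96-fold higher in the rLif-labelled library than in the eKO-labelled library (2.57, 1.77 to 3.48). In the rLif-labelled library it was 2.30-fold below the control-labelled library (-1.20, -1.60 to -0.82), a ratio that was not called because the near bound of its interval lay within 2-fold. *Muc4* and *Muc20* lie on opposite strands and share 381 exon bases, 3.38% of the exon length of *Muc4* and 8.90% of that of *Muc20*. Since the strand setting of the counting was not given in the sources used here, reads in these bases could belong to either gene, and both counts are uncertain to that extent.

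*Muc15* (chr2:110721608-110737963, plus strand) had 0 counts in all 6 libraries, which allows up to 0.119, 0.104 and 0.115 CPM in the luminal libraries (3 counts each). At this depth it was not detected.

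*Epcam* (chr17:87635979-87651127, plus strand), the epithelial adhesion molecule that marks nearly all simple epithelia, had 25283, 16397 and 35284 counts, or 1001, 571 and 1355 CPM. Its level was lowest in the eKO-labelled library, at a log2 ratio to the control-labelled library of -0.81 (-0.84 to -0.78), which was not called. The rLif-labelled library was 2.37-fold above the eKO-labelled library (1.25, 1.22 to 1.27), a called ratio, and the log2 ratio to the control-labelled library was 0.44 (0.41 to 0.46).

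*Cd24a* (chr10:43579169-43584265, plus strand) encodes a small, mucin-like protein held to the membrane by a lipid anchor. Its counts of 25161, 54806 and 25747, or 997, 1908 and 989 CPM, placed the eKO-labelled library 1.91-fold above the control-labelled library and 1.93-fold above the rLif-labelled library. The log2 ratios were 0.94 (0.92 to 0.96) and -0.95 (-0.97 to -0.93), both just short of the limit. Scaled by total counts, the latter was -1.06 (-1.08 to -1.04) and was called. The rLif- and control-labelled libraries were nearly level (-0.011, -0.036 to 0.014). A transcript of the pseudogene Gm6212 matched *Cd24a* at 96.8% identity over 218 bases, so some *Cd24a* reads could have been placed there or dropped, and its counts are uncertain to that extent.

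*Cd44* (chr2:102811142-102901665, minus strand), the main receptor for hyaluronan, had 648, 1956 and 689 counts in the control-, eKO- and rLif-labelled libraries, or 25.7, 68.1 and 26.5 CPM. The eKO-labelled library was 2.65-fold above the control-labelled library (log2 1.41, 1.28 to 1.54), and the rLif-labelled library was 2.57-fold below the eKO-labelled library (-1.36, -1.49 to -1.24). Both were called. Between the rLif- and control-labelled libraries the ratio was 0.044 (-0.11 to 0.20), and -0.13 when scaled by total counts.

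*Podxl* (chr6:31519493-31563937, minus strand), a sialomucin of apical and vascular surfaces linked to the actin cortex by ezrin, was also highest in the eKO-labelled library, with 464, 1267 and 378 counts or 18.4, 44.1 and 14.5 CPM. It was 2.40-fold higher in the eKO-labelled library than in the control-labelled library (log2 1.26, 1.11 to 1.42) and 3.04-fold lower in the rLif-labelled library than in the eKO-labelled library (-1.60, -1.77 to -1.44), and both ratios were called. The rLif- and control-labelled libraries differed by -0.34 (-0.54 to -0.14).

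*Emcn* (chr3:137341078-137431069, plus strand) had 317, 567 and 402 counts, or 12.6, 19.7 and 15.4 CPM. None of its ratios was called, and the log2 ratios were 0.65 (0.45 to 0.86), -0.35 (-0.54 to -0.17) and 0.30 (0.082 to 0.52). Markers of other cell types also differed among the luminal libraries. The summed stroma markers were highest in the eKO-labelled library (1393 CPM, against 943 and 937 CPM), where *Cd44*, *Podxl*, *Cd24a* and *Emcn* were highest too. Of the 12 listed, 10 lay above 0 for eKO against control on the log2 scale, as did 7863 of all 15694 genes. The 1 called higher was *Col3a1*, a collagen gene looked up after its values were seen. That is near the share of all genes called higher, 8.08%. The summed endothelium markers were 117, 149 and 172 CPM. For eKO against control, 9 of the 14 lay above 0, as did 7863 of all 15694 genes. Of the 14, 3 were called higher, a larger share than the 8.08% of all genes. The sum of all 14 was highest in the rLif-labelled library, unlike *Emcn* and *Podxl*. Without *Tek*, left out after its values were seen, the other 13 summed to 112, 142 and 137 CPM. That order was the order of *Emcn*, but *Podxl* was lower in the rLif-labelled than in the control-labelled library. The most abundant of the 14 were *Esam* (20.4, 30.3 and 27.04 CPM), *Egfl7* (17.5, 23.1 and 21.0), *Cdh5* (9.19, 21.7 and 23.1) and *Tek* (4.91, 6.89 and 34.5). Of these, *Cdh5* and *Tek* were highest in the rLif-labelled library. The summed leukocyte markers were 1116, 1078 and 1079 CPM, led by *Lyz2* (745, 612 and 549), *Cd52* (74.4, 117 and 122), *Fcer1g* (65.0, 81.8 and 116) and *Tyrobp* (51.3, 86.9 and 86.5). All 14 markers of endothelium and all 14 of leukocytes had counts in each luminal library. The part of these cell types in the values of *Cd44*, *Podxl*, *Cd24a* and *Emcn* was not tested.

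**Figure D2:**
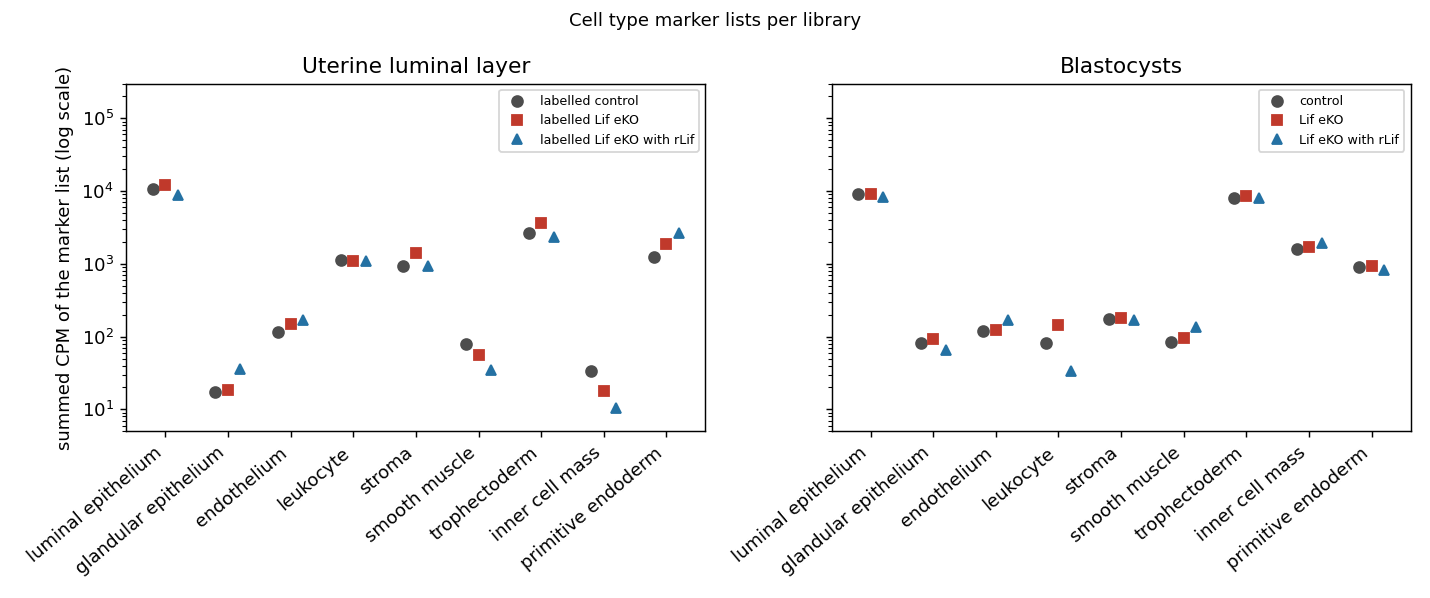
Summed CPM (log scale) of the marker lists of each cell type in the 3 luminal libraries (left) and the 3 blastocyst libraries (right). Stroma markers reach 1393 CPM in the luminal eKO-labelled library against 943 and 937 CPM in the other luminal libraries, and leukocyte markers vary from 34.2 to 146 CPM among blastocyst libraries.

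Counted together, 4 of the 8 analysed members were called between the eKO- and control-labelled libraries, *Cd44* and *Podxl* higher and *Muc4* and *Muc20* lower, where 17.2% of the 15694 genes analysed were called (8.08% higher, 9.15% lower). Between the rLif- and eKO-labelled libraries, 6 of 8 were called, *Muc1*, *Muc4*, *Muc20* and *Epcam* higher and *Cd44* and *Podxl* lower, with 15.6% of all genes called (7.88% higher, 7.77% lower). Between the rLif- and control-labelled libraries, *Muc1* alone of the 8 was called, with 9.16% of all genes called (4.12% higher, 5.04% lower). The median log2 ratio of the members was 0.40, 0.40 and 0.17 in these comparisons, and that of all genes 0.0063, -0.0072 and 0.013. These comparisons share libraries, so the reverse directions in the first pair of them are not separate evidence: the same eKO-labelled library stands on one side of each. With edgeR's exact test at an assumed dispersion of 0.1, the members called were *Muc20* between the eKO- and control-labelled libraries and *Muc4* and *Muc20* between the rLif- and eKO-labelled ones, where it called 7.96% and 7.07% of all genes, and 0 members between the rLif- and control-labelled ones, where it called 2.18%.

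**Figure D3:**
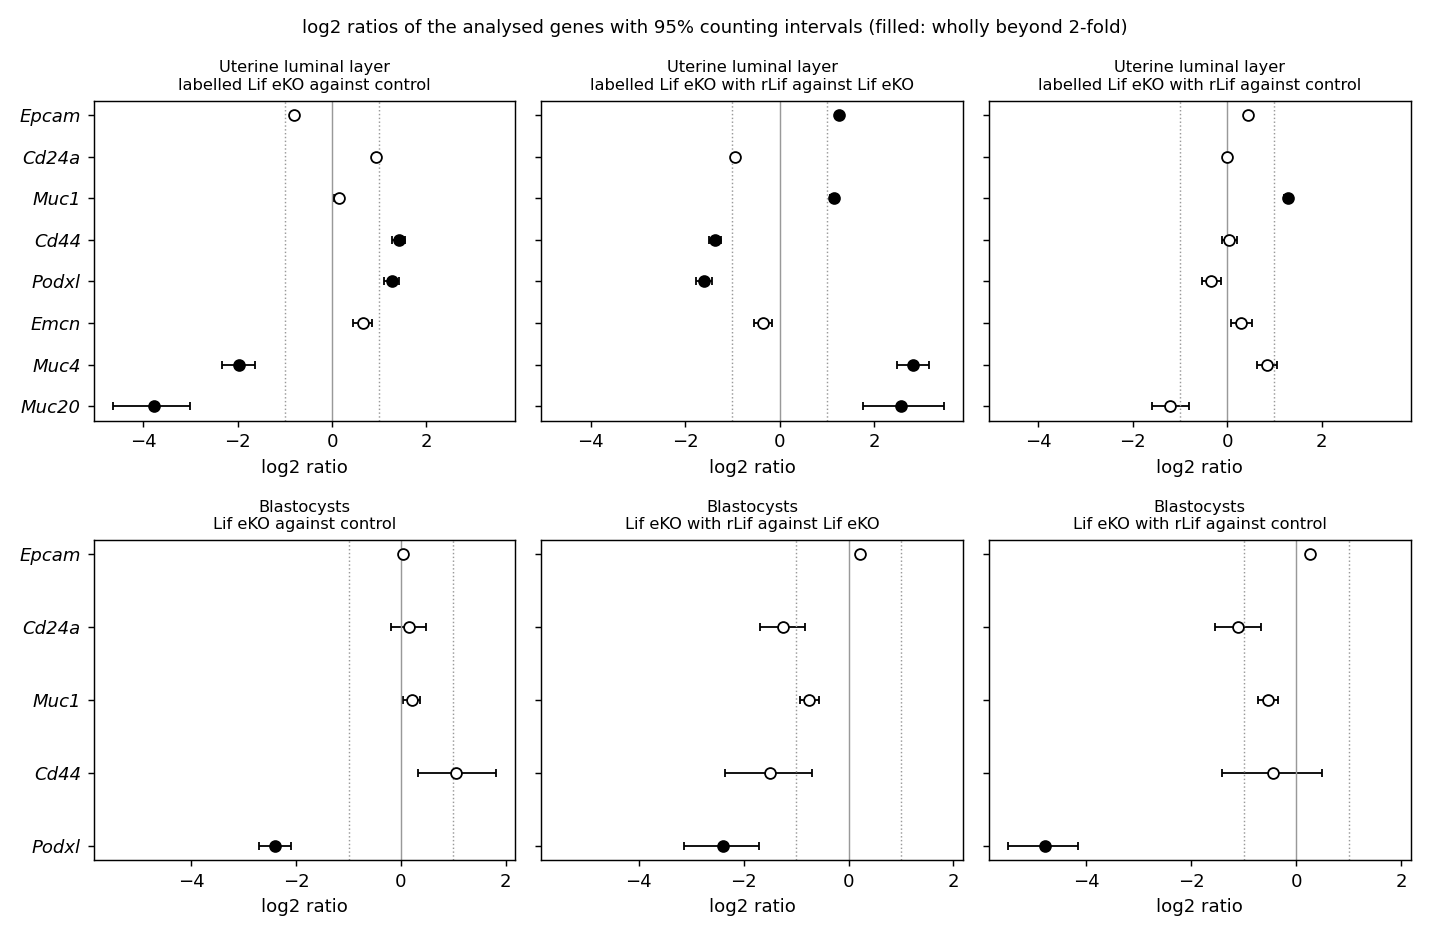
Log2 ratio of each analysed member in the 3 comparisons of luminal libraries (top) and of blastocyst libraries (bottom), with exact 95% intervals for counting error. Filled points have an interval wholly beyond 2-fold (dotted lines). *Muc4* and *Muc20* lie on the left in the first luminal panel and on the right in the second, and *Podxl* is the filled point in every blastocyst panel.

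In blastocysts, *Podxl* was the member that differed most, falling across the libraries from control to eKO to eKO with rLif, while *Epcam* was nearly level. *Podxl* had 571 counts in control blastocysts, 111 in eKO blastocysts and 21 in eKO blastocysts from rLif-treated females, or 29.95, 5.68 and 1.08 CPM. The counting intervals of these 3 levels did not overlap. It was 5.27-fold lower in eKO than in control (log2 -2.40, -2.71 to -2.10), 5.26-fold lower with rLif than without in eKO (-2.39, -3.14 to -1.71) and 27.7-fold lower with rLif than in control (-4.79, -5.50 to -4.17). In these comparisons 2.40%, 3.61% and 2.09% of all genes had a lower ratio. *Podxl* was called in each, and 1 of the 5 analysed members was called each time, where 3.15%, 3.75% and 4.94% of the 14873 genes were called. Of all genes, 1.29%, 0.914% and 0.948% were called higher and 1.86%, 2.83% and 3.99% lower. The exact test at a dispersion of 0.1 called *Podxl* between rLif and control and 0 members in the other blastocyst comparisons, and 0.437%, 0.39% and 0.834% of all genes. The control blastocyst level of 29.95 CPM lay within the 14.5 to 44.1 CPM of the luminal libraries, but the tables were scaled separately.

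*Epcam* had 22316, 23563 and 27388 counts in the control, eKO and eKO with rLif blastocysts, or 1171, 1205 and 1409 CPM, and its log2 ratios were 0.042 (0.016 to 0.069), 0.22 (0.20 to 0.25) and 0.27 (0.24 to 0.29). *Muc1* had 583, 689 and 409 counts, or 30.6, 35.2 and 21.0 CPM, lowest with rLif (log2 -0.74, -0.92 to -0.57, against eKO), but no ratio was called. Both genes thus stayed within 2-fold in every blastocyst comparison. *Cd24a* had 143, 163 and 68 counts, or 7.50, 8.34 and 3.50 CPM, and was 2.38-fold lower with rLif than in eKO (-1.25, -1.68 to -0.84), which was not called. *Cd44* was scarce, with 24, 51 and 18 counts, or 1.26, 2.61 and 0.926 CPM, and its log2 ratios of 1.05 (0.32 to 1.82) and -1.49 (-2.36 to -0.69) were not called either. The listed mucins *Muc4*, *Muc15* and *Muc20* were at or near 0 in blastocysts. *Muc4* had 1, 0 and 0 counts. *Muc15*, *Muc20* and *Emcn* had 0 counts in every blastocyst library, which allows at most 0.157, 0.153 and 0.154 CPM. Median log2 ratios over the 5 members were 0.15, -1.25 and -0.54, beside -0.0030, -0.0095 and -0.013 for all genes.

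Markers of other cells differed among blastocyst libraries as well. The summed leukocyte markers were 82.6, 146 and 34.2 CPM, highest in eKO, the order of *Cd44*, and 14 of the 14 had counts. *Lyz2* (51.2, 109 and 14.9 CPM) was the largest part of the sum, followed by *Laptm5* (10.5, 9.87 and 6.38), *Itgam* (2.52, 5.17 and 1.70) and *Cd68* (2.15, 3.38 and 2.88). For eKO against control, 9 of the 14 lay above 0 and 5 below. There 0 were called higher and 2 lower, unlike the order of the sum, beside 1.29% and 1.86% of all genes. For rLif against eKO, 0 were called higher and 4 lower, beside 0.914% and 2.83% of all genes. The summed endothelium markers were 120, 125 and 168 CPM, led by *Pecam1* (64.1, 66.8 and 93.0), *Tie1* (16.4, 26.9 and 44.8), *Egfl7* (21.8, 20.0 and 19.6) and *Esam* (4.51, 3.79 and 3.40). Whether these counts came from endothelium or from the blastocysts themselves was not tested. *Cldn5* was at 0 counts in all 3 libraries, *Kdr* at 27, 0 and 0 and *Tek* at 0, 9 and 7. The summed stroma markers were 176, 181 and 167 CPM, of which *Pdgfra*, also a primitive endoderm marker, gave 123 to 146 CPM. Without it, 10 of the 11 other stroma markers were highest in the control library, as *Podxl* was, at levels from 0.367 to 10.0 CPM. How many of all genes were highest there was not counted. Of the 12 listed, 11 had enough counts to be analysed, and 0 were called higher in any comparison. Called lower were 2 in eKO against control, 0 with rLif against eKO and 5 with rLif against control. Of all genes, 1.86%, 2.83% and 3.99% were called lower. The luminal epithelium markers, some of which trophectoderm also expresses, summed to 9010, 9151 and 8193 CPM. For rLif against eKO, 11 of the 11 analysed lay below 0, with 0 called and a median log2 ratio of -0.17. Of all 14873 genes, 7541 lay below 0 there. For eKO against control, 4 of the 11 lay above 0 and 7 below, with a median of -0.024. *Krt19*, the 1 called lower in eKO against control, had 1401, 241 and 108 counts, or 73.5, 12.3 and 5.56 CPM. It stepped down as *Podxl* did, apart from most of its list. With rLif against control *Krt19* and *Cldn3* were called lower, and the median of the list was -0.20. Of all genes, 1.86% and 3.99% were called lower in these comparisons. Of the 4 glandular markers analysed, *Foxa2* and *Ttr* were called lower with rLif than in control (median log2 of the list -2.02). *Foxa2* is also a primitive endoderm marker, and 2 of the 8 markers of that list were called lower there. *Ttr* was scarce, 3.66-fold lower at the near bound of its interval and 5.10-fold against a floor of 3 counts. These genes were looked up after their values were seen. The part of these cells in the values of *Podxl* and *Cd44* was not tested.

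**Figure D4:**
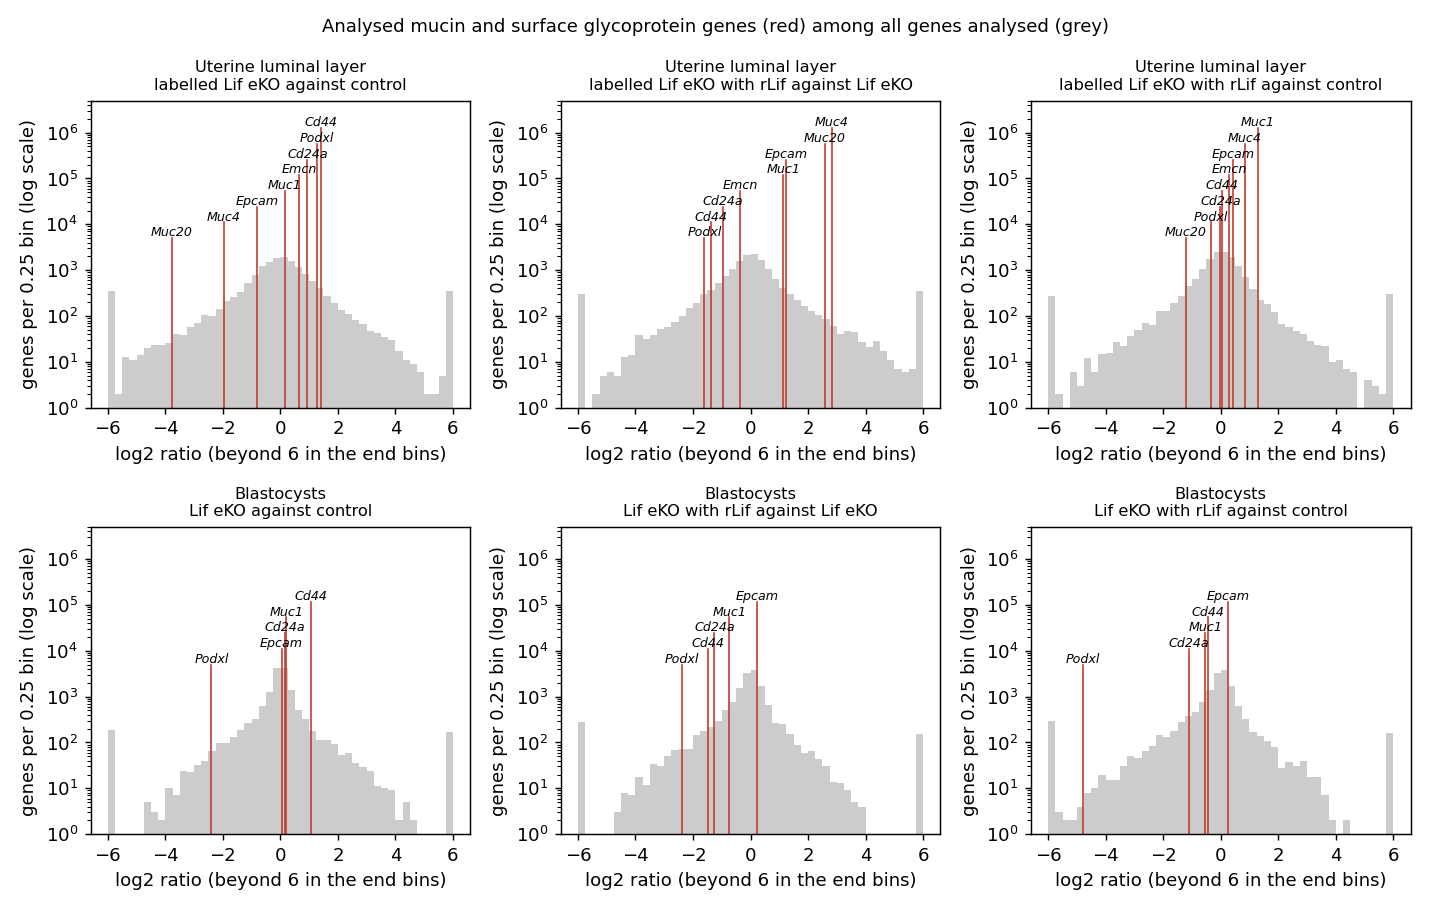
Distribution of log2 ratios over all analysed genes (grey, gene number on a log scale, values beyond 6 in the end bins, which also hold genes with 0 counts in 1 library) with the members in red, for the 3 luminal (top) and 3 blastocyst (bottom) comparisons. *Muc20* lies in the lower tail of the first luminal panel and *Podxl* in the lower tail of each blastocyst panel.

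The genes that act with these proteins were followed as lists, whose luminal comparisons again name the libraries as labelled. Shares of all genes to set beside every list below follow the order eKO against control, rLif against eKO and rLif against control. In the luminal layer 8.08%, 7.88% and 4.12% were called higher and 9.15%, 7.77% and 5.04% lower. In blastocysts 1.29%, 0.914% and 0.948% were called higher and 1.86%, 2.83% and 3.99% lower. Medians of all genes ran from -0.013 to 0.013. Of 18 other mucins and sialomucins, 9 were analysed in the luminal layer, and 1 was called higher in eKO against control, 1 lower in eKO with rLif against eKO and 1 higher in eKO with rLif against control (median log2 ratios 0.29, -0.37 and 0.15). That gene was *Ovgp1*, the mucin-like oviductal glycoprotein, each time. It had 1931, 12760 and 5405 counts in the control-, eKO- and rLif-labelled libraries, with log2 ratios of 2.54 (2.47 to 2.61), -1.10 (-1.14 to -1.05) and 1.44 (1.37 to 1.52). In blastocysts *Ovgp1* had 18, 110 and 19 counts, highest in eKO as in the luminal layer (2.58, 1.85 to 3.38, and -2.53, -3.31 to -1.81). The leukocyte sialomucins *Spn* (33, 8 and 0 counts) and *Selplg* (64, 83 and 19) were lowest in the blastocysts with rLif. Of 10 genes of this list analysed in blastocysts, 1 was called higher, 2 lower and 2 lower in the 3 comparisons (medians 0.089, -0.14 and -0.018).

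Of 11 luminal proteases and inhibitors that act on surface proteins, 2 were called higher and 3 lower in eKO against control, 4 higher and 2 lower in eKO with rLif against eKO, and 1 higher and 1 lower in eKO with rLif against control (medians -0.68, 0.38 and 0.020). Of 12 in blastocysts, 2, 0 and 1 were called by the interval rule, all lower (medians -0.086, -0.11 and -0.15). *Timp1*, an inhibitor of matrix metalloproteases, had 612, 128 and 2112 counts and was 18.2-fold higher in the rLif-labelled library than in the eKO-labelled library (log2 4.19, 3.93 to 4.45). Its relative *Timp3* had the opposite order, with 1411, 5749 and 1148 counts. The sheddase *Adam8* had 67, 39 and 9 counts in the luminal layer. In blastocysts it had 214, 59 and 28, and was 7.79-fold lower with rLif than in control (-2.96, -3.59 to -2.39). *Mmp24* had 12, 0 and 6 blastocyst counts, and its exons overlap those of another gene.

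Of the 15 analysed ezrin-type linkers and scaffolds, 2 were called higher and 1 lower in the luminal eKO against control comparison, 1 higher and 1 lower with rLif against eKO, and 0 by the interval rule with rLif against control (medians -0.25, -0.13 and -0.29). *Rdx*, which encodes radixin, had 2769, 6794 and 3407 counts, and *Nf2*, the related merlin, had 909, 2628 and 1069. Both were highest in the eKO-labelled library, where *Cd44* and *Podxl* were highest. The polarity gene *Pard6b* had 1117, 366 and 942 counts, lowest there (log2 -1.80, -1.97 to -1.62, and 1.51, 1.33 to 1.68). In blastocysts 0, 0 and 1 of 16 were called by the interval rule, the last being *Eps8*, which was lower, with 558, 460 and 223 counts (medians 0.058, -0.13 and -0.083).

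Among 14 hyaluronan genes and other Cd44 ligands, all analysed in the luminal layer, 1 was called higher and 1 lower in eKO against control, 2 higher and 3 lower with rLif against eKO, and 3 higher and 1 lower with rLif against control (medians -0.091, 0.71 and 0.23). *Spp1* (osteopontin), which binds Cd44, had 5566, 1264 and 2850 counts and was 5.01-fold lower in the eKO-labelled library than in the control-labelled library (log2 -2.32, -2.41 to -2.24), opposite to *Cd44* itself. The hyaluronan-binding *Tnfaip6* had 100, 479 and 77 counts, highest in the eKO-labelled library as *Cd44* was. *Has3*, a hyaluronan synthase, had 6, 31 and 0 counts and was lower in the rLif-labelled library than in the eKO-labelled library, by at least 7.17-fold at the near bound of its interval and 9.37-fold against a floor of 3 counts. In blastocysts the synthase *Has2* had 205, 0 and 0 counts and was lower in eKO than in control, by at least 56.5-fold at the near bound of its interval and 70.1-fold against the floor, although antisense reads cannot be told apart from its own. Blastocyst *Vcan* had 18, 0 and 16 counts and *Lyve1* 6, 12 and 0. Of 11 analysed there, 2 were called lower in eKO against control, 1 higher and 1 lower with rLif against eKO, and 1 lower with rLif against control (medians -0.35, -0.22 and -0.80).

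Of 15 lectins and binding partners analysed in the luminal layer, 2 were called higher and 3 lower in eKO against control, 1 higher and 2 lower with rLif against eKO, and 1 higher and 1 lower with rLif against control (medians 0.31, -0.30 and -0.20). *Met*, whose product binds Muc20, had 1376, 386 and 1087 counts and was lowest, like *Muc20*, in the eKO-labelled library (4.06-fold, log2 -2.02, -2.19 to -1.86). *Msln*, which binds the mucin Muc16, had 21, 0 and 0 counts, and *Lgals12* had 8, 20 and 0. In blastocysts *Clec10a* had 37, 45 and 157 counts and was 4.16-fold higher with rLif than in control (2.06, 1.53 to 2.62). The selectin *Selp* had 9, 31 and 4 counts and *Lgals4* 3, 24 and 22, and exons of both overlap another gene. Of 17 analysed there, 1 was called higher in eKO against control, 2 higher and 1 lower with rLif against eKO, and 2 higher and 1 lower with rLif against control (medians 0.11, 0.27 and 0.45).

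Of 18 analysed Epcam partners and apical surface proteins, 5 were called higher and 4 lower in the luminal eKO against control comparison, 4 higher and 3 lower with rLif against eKO, and 2 higher and 2 lower with rLif against control (medians 0.045, 0.049 and 0.43). *Ceacam1*, an adhesion glycoprotein, had 628, 3478 and 736 counts and was 4.87-fold higher in the eKO-labelled library than in the control-labelled library (log2 2.28, 2.16 to 2.41). *Upk3b* had 145, 0 and 0 counts. It was lower in the eKO-labelled than in the control-labelled library, by at least 44.1-fold at the near bound of its interval and 55.0-fold against the floor. The 8 smooth muscle markers were also highest in sum in the control-labelled library, at 79.8, 55.7 and 35.3 CPM. In eKO against control 0 were called higher and 2 lower (median -0.75), beside 9.15% of all genes lower. With rLif against control 0 were called higher and 5 lower (median -1.80), beside 5.04% lower. The part of muscle or other outer tissue in the values of *Upk3b* and *Msln* was not tested. The peptidase *Dpp4* had 1374, 930 and 278 counts, lowest in the rLif-labelled library (-2.35, -2.54 to -2.16, against control). In blastocysts 0 of 19 genes of that list were called by the interval rule in any comparison (medians -0.012, -0.23 and -0.15).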

How the data were processed

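RNA was sequenced from 3 pooled luminal layer libraries and 3 pooled blastocyst libraries. The authors made SMART-seq v4 libraries, aligned reads with HISAT2 (GRCm38/mm10) and obtained gene counts from featureCounts (Subread 2.0.0, per the labels). The deposited values were whole-number counts without normalization, although the study's methods name the output RPKM, and exon lengths (unit other, bases) were deposited beside them. The annotation release and the strand and multi-mapping settings were not given in the sources used here, so reads of overlapping or near-identical genes are uncertain.

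Groups were taken from the labels. Genes entered a tissue's analysis with 10 or more counts summed over its 3 libraries. Library sizes were scaled by TMM within each table (edgeR 4.0.16, R 4.3.3), and CPM and RPKM were computed on these sizes. Intervals are 95%, Poisson for a level and Clopper-Pearson for a ratio (SciPy 1.17.1). A gene was called when the interval lay wholly beyond a log2 ratio of 1, and a count of 0 was set against a floor of 3 counts per library. Alternatives were DESeq2 1.42.0 size factors, total counts, a minimum of 50 counts, no minimum, a log2 limit of 0.5 and edgeR's exact test at an assumed dispersion of 0.1 with a false discovery limit of 0.05 and the same log2 limit. Similar transcripts were sought with BLAST 2.17.0 in GENCODE M21 (at least 95% identity over 100 bases). The members and gene lists were chosen with earlier results of these data known. All members were named, and from each partner list the at most 3 genes per tissue whose nearest interval bound lay farthest from 0 among those called. *Muc16*, *Muc3*, *Muc3a*, *Mucl2* and *Cxcl15* were not analysed here.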

Additional observations from a re-analysis of the deposited data

Results flagged for a closer look

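For 3 members the log2 ratios of the luminal layer and the blastocysts had opposite signs under the same contrast, with counting intervals on opposite sides of 0. How many of all genes would do so was not counted, and at high counts a very small ratio can meet this rule. Of the 3, only *Podxl* was called in both tissues. *Muc1* had a log2 ratio of 1.15 in the luminal libraries labelled eKO with rLif against eKO and of -0.74 in the blastocysts, and of 1.29 and -0.54 against control. *Podxl* had a log2 ratio of 1.26 between the luminal libraries labelled eKO and control and of -2.40 between the blastocyst libraries. *Epcam* stood at -0.81 in the luminal layer for eKO against control. In blastocysts it was nearly level, at 0.042, or 0.030 when scaled by total counts. The difference between the tissues was not tested, since each group is 1 library and the tables were scaled separately.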

How the results depend on the processing

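With 1 library per group no replicate could be left out, and the spread between animals is unknown. No paired analysis was possible because each group has 1 library. Of 78 member ratios recomputed under other scalings, 1 changed sign: *Cd44* between the luminal libraries labelled eKO with rLif and control went from 0.044 to -0.13 with total counts. Total counts moved luminal log2 ratios by at most 0.18. By edgeR's exact test at an assumed dispersion of 0.1, members called numbered 1, 2 and 0 in the luminal comparisons (eKO against control, eKO with rLif against eKO, eKO with rLif against control), where 4, 6 and 1 were called by the interval rule, and 0 and 0 in the first and second blastocyst comparisons, where 1 and 1 were. By that test all genes called numbered 1250, 1109 and 342 (2704, 2456 and 1438 by interval) and 65, 58 and 124 in blastocysts (468, 557 and 734). A log2 limit of 0.5 gave 3 luminal members for eKO with rLif against control, 4 blastocyst members for eKO with rLif against eKO and 2 for eKO with rLif against control, and 5646, 4885, 3703, 1094, 1526 and 1654 genes in all. A minimum of 50 counts gave 209, 325 and 447 blastocyst genes. The other alternatives left these counts within 1.5 times, but total counts changed 2 member calls, both between the luminal rLif- and eKO-labelled libraries: *Muc1* lost its call (1.04) and *Cd24a* gained one (-1.06). DESeq2 size factors changed 0 member calls.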

Other observations

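Genes whose blastocyst levels had the same order as those of *Podxl* were noted after their values were seen. *Itgb3*, an integrin subunit, had 1026, 93 and 19 counts in the control, eKO and eKO with rLif blastocysts, or 53.8, 4.76 and 0.977 CPM. *Nfatc1*, a transcription factor, had 712, 85 and 23 counts. *Slc16a3*, a lactate transporter, had 1668, 198 and 55 counts, and *Ldha*, a lactate dehydrogenase subunit, had 7174, 1888 and 567.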
